A study of Mus musculus with 8 samples.

Results

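Ubiquitin-specific proteases (USPs) are the largest family of deubiquitinases, the enzymes that take ubiquitin off proteins. The family was followed here as 44 genes of a table of 19457, in primary mouse keratinocytes from skin that were harvested before confluence. Its members were the rows whose symbol is Usp followed by a digit, without Usp18 and Usp9y, and with a mean of at least 1 aligned base per Mb of library over 8 libraries. The unit is the summed read coverage of a gene, scaled for library size, and is written aligned bases per Mb. Of the 50 rows that fit the symbol, 6 lay below that level. RNA was sequenced from 4 libraries of HOIL1 ΔRING1 (HdR) keratinocytes and 4 of wild-type (WT) keratinocytes. HdR mice carry a form of HOIL-1L that lacks its first RING domain. HOIL-1L is part of LUBAC, the complex that builds linear ubiquitin chains. The labels give no age, sex or treatment. They also leave unsaid which animals or cultures gave which library, so p-values measure only the spread between these libraries, which may be technical.

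USPs share a papain-like fold with a catalytic cysteine and cleave the bond between ubiquitin and a substrate, or between ubiquitins of a chain. Single members are known for set tasks, such as recycling of free chains (Usp5), trimming of chains at the proteasome (Usp14), release of ubiquitin from histones, DNA repair (Usp1) and endosomal sorting of receptors (Usp8). Several act on adaptors and kinases of TNF and NF-κB signalling, the pathway that linear chains made by LUBAC feed into. The symbol rule also took in Usp6nl, which encodes a GTPase-activating protein for Rab proteins and no protease, and Usp39, Usp53 and Usp54, whose products were long regarded as inactive. Roles below are those known from mouse or human proteins.

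Rbck1, which encodes HOIL-1L, served as a check of the labels. It had 43.6, 41.1, 45.2 and 44.8 aligned bases per Mb in HdR libraries, against 84.4, 89.3, 91.3 and 84.8 in WT libraries. The genotypes did not overlap (log2 fold change -0.99 ± 0.046, SE, limma adjusted p = 8e-11). The labelled cell type was borne out by its markers: all 10 keratinocyte markers were detected, with Krt5 at 18585 ± 304 and 17283 ± 840 and Krt14 at 17021 ± 216 and 17470 ± 1426 aligned bases per Mb in HdR and WT libraries (SD, n = 4 each). Of these 10 markers, 3 (Itgb4, Krt5 and Col17a1, of basal cells) were called higher in HdR (30%, against 21.4% of all genes), 2 lower (20%, against 23.6%) and 5 not called. The lower ones were Krt10 and Krt1, keratins of differentiating cells (log2 fold change -2.05 ± 0.051 and -1.40 ± 0.075, SE). Those not called included Krt14, Krt15 and Trp63, also of basal cells. Markers called higher numbered 1 without HdR 1, HdR 3, HdR 4 or WT 1, and also with same-numbered libraries as blocks. Upper-quartile scaling gave 4. HdR libraries held 2.31 to 4.31 Gb of aligned bases and WT libraries 4.78 to 5.43 Gb, so each HdR library was shallower than each WT library and depth and genotype cannot be told apart. None of the 5 fibroblast markers with a row reached the level of 1, and of 6 immune markers only Cd68, a lysosomal gene that is not restricted to immune cells, did (39.5 ± 0.549 and 56.4 ± 5.84 in HdR and WT libraries, SD, n = 4 each). Cd68 was called lower in HdR (log2 fold change -0.49). Cd207 and Lyz2 were at 0 in all libraries, and of 5 endothelial markers only Egfl7 was tested and was not called in the main fit. Melanocyte markers moved with the genotype: 6 of 7 tested were lower in HdR (85.7%, against 23.6% of all genes) and none higher. Their summed level was 27.7 to 29.7 aligned bases per Mb in HdR and 53 to 61.1 in WT libraries. The part of these markers in the values below was not tested. In such bulk RNA fewer cells of a type and less RNA per cell cannot be told apart.

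Most of the family is expressed in these cells, over a wide range. Levels between genes were compared per kilobase of exonic length (all annotated exons merged), because summed coverage grows with length. Usp5 was highest, at a mean of 28.2 aligned bases per Mb and kb over the 8 libraries. Usp39, which encodes a splicing factor, followed at 26.1 and Usp7, the protease of MDM2 and p53, at 23.3. The libraries of Usp5 and Usp39 overlapped on this scale, while those of Usp39 and Usp7 did not. The median member was at 5.6, and the highest member was 84.8 times the lowest. The lowest were Usp11 at 0.333 and Usp35 at 0.334, whose libraries overlapped. These are also the members just inside the level threshold, at 1.58 and 1.77 aligned bases per Mb without length scaling. Just outside it, Usp50 averaged 0.0163 and was at 0 in 6 of 8 libraries, and Usp13, the close relative of Usp5, averaged 0.0076 and was at 0 in 7. Usp17la, Usp51, Usp29 and Usp17le had signal in 1 library each.

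**Figure D1:**
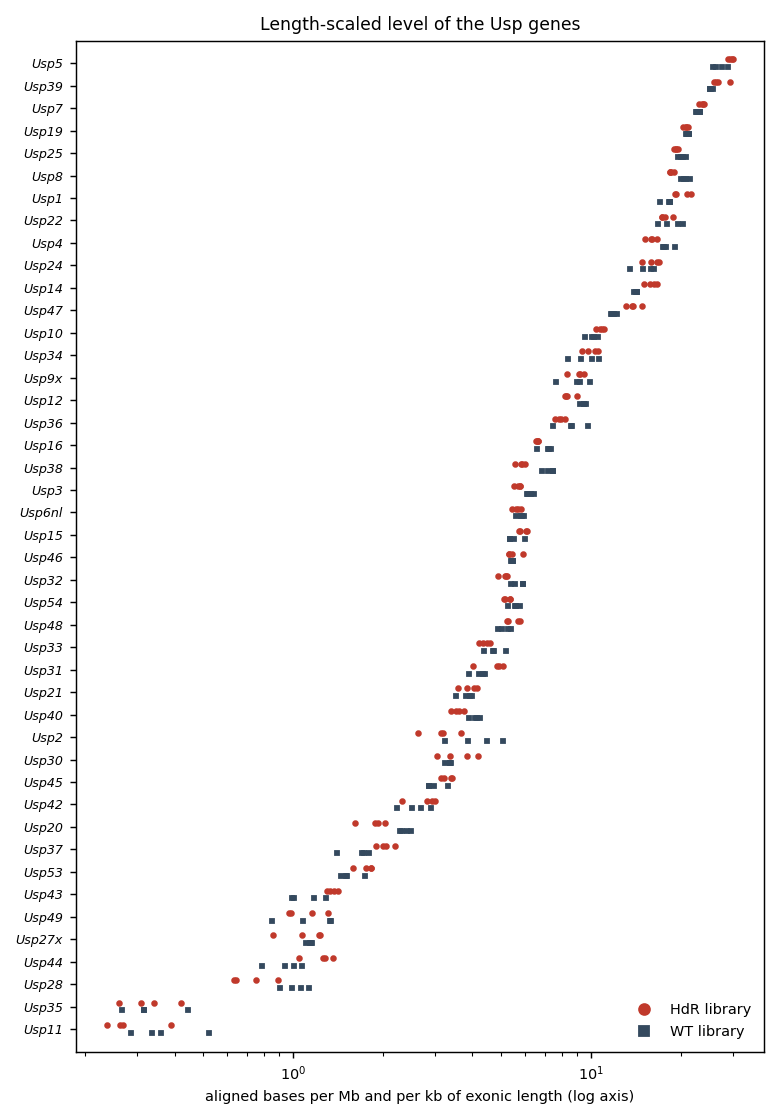
Level of each of the 44 Usp genes in every library, in aligned bases per Mb of library and per kb of exonic length on a log axis, with HdR libraries as red circles above WT libraries as dark squares. Usp5, Usp39 and Usp7 are at the top and Usp35 and Usp11, near 0.33, at the bottom, and for most genes the symbols of the genotypes lie side by side.

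In total the family took a similar share of coverage in both genotypes. The 44 genes summed to 2834, 2781, 2891 and 2854 aligned bases per Mb in HdR libraries, against 2798, 2883, 2713 and 2839 in WT libraries. The HdR mean was 2840 ± 45.7 and the WT mean 2808 ± 72.5 (SD, n = 4 each), and the ranges overlapped. The 10 highest members by summed coverage gave 53.8% of it.

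Changes of single members were small. By limma on log2 values, 16 of the 44 (36.4%) were called at an adjusted p under 0.05, against 45.1% of the 11870 genes tested, so the family was called no more often than the background. Of the 16, 6 were higher in HdR (13.6% of members, against 21.4% of all genes) and 10 were lower (22.7%, against 23.6%). The median log2 fold change of the 44 was 0.00012, and that of all genes tested was -0.0090. Values of the genotypes did not overlap in 6 members with HdR above WT and in 10 with HdR below WT, where 20% and 21.2% of all genes did so.

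The balance of directions depended on the scaling. Upper-quartile scaling called 13 members higher and 6 lower (26.2% and 19.2% of all genes), and with library totals as the only scaling 10 were higher and 9 lower (24.3% and 20.7%). After a correction for exonic length 10 were higher and 10 lower (22.5% and 24.7%). The median log2 fold change of all genes was 0.027 with upper-quartile scaling, 0.014 with library totals and -0.0076 after the length correction.

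The largest change in the family was a log2 fold change of -0.41, for Usp28. On this scale of log2(value + 1), 38 of the 44 members (86.4%) differed by less than 1.2-fold, against 72.4% of all genes tested. The added 1 shrinks changes of low members. With 0.1 added in its place, Usp11 was at -0.35 and Usp43 at 0.28, both past 1.2-fold (0.26 in log2). For 25 (56.8%) the whole 95% interval of the change lay within 1.2-fold in either direction, against 39% of all genes. Tested against a fold of 1.2, limma's treat called 0 of 44 members, with 0 at an unadjusted p under 0.05, where 7.47% of all genes were called. Members and all genes were not matched for level or length, so these shares do not show that the family is unusually stable.

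**Figure D2:**
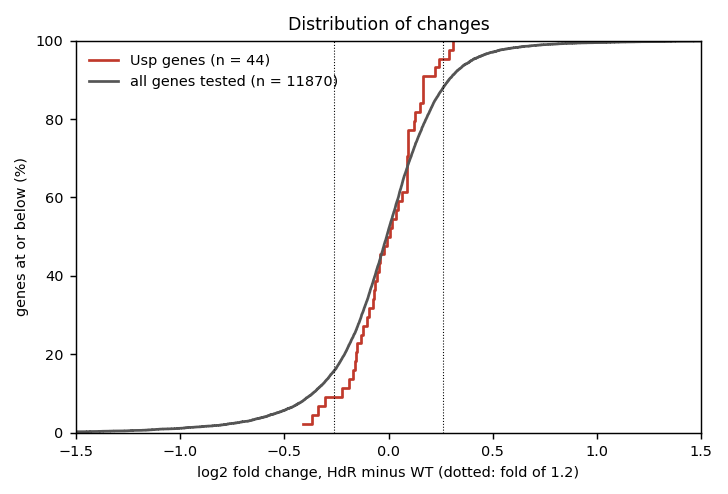
Cumulative share of genes (%) at or below each log2 fold change (HdR minus WT), for the 44 Usp genes in red and all 11870 genes tested in grey, with dotted lines at a fold of 1.2. The red curve is steeper and stays between -0.41 and 0.31, while the grey curve has longer tails on both sides.

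**Figure D3:**
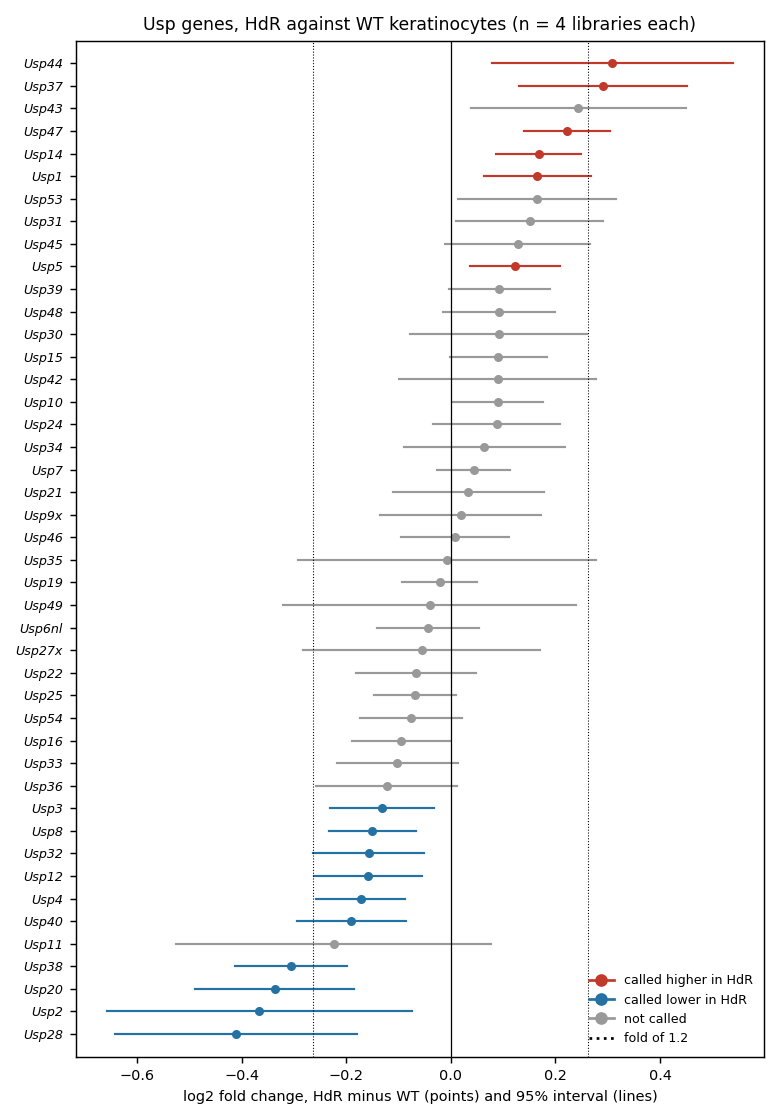
Log2 fold change (HdR minus WT) of each Usp gene with its 95% interval, coloured by call (red higher, blue lower, grey not called), with dotted lines at a fold of 1.2. The 10 blue genes lie between -0.41 and -0.13 and the 6 red ones between 0.12 and 0.31, and every interval reaches inside the dotted lines. With upper-quartile scaling the calls were 13 higher and 6 lower.

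Among the USPs known from TNF, NF-κB and related innate signalling, 4 of 12 were lower in HdR (33.3%, against 23.6% of all genes) and 0 higher (21.4% of all genes). Upper-quartile scaling turned this to 4 higher and 3 lower. Usp38, a regulator of TBK1 in innate signalling (chromosome 8, 80980733 to 81014928, GRCm38), had 33.6, 33.4, 34.5 and 32 aligned bases per Mb in HdR libraries, against 42.7, 39.4, 41.3 and 42.7 in WT libraries. Every HdR library was below every WT library, and the groups were tight (log2 fold change -0.31 ± 0.05, SE, limma adjusted p = 0.000108). The exons of Usp38 share 20.5% of their length with the antisense gene Gm9725, which has no values here. Strand use in the counting is not given, so reads of Gm9725 may be included. Usp20, which acts on receptors and on TRAF6 (chromosome 2, 30982279 to 31023586), had 17, 17.4, 18.3 and 14.6 in HdR libraries, against 20.9, 22.5, 21.8 and 20.6 in WT libraries. The groups were again apart, with HdR 4 the lowest library (-0.34 ± 0.072, adjusted p = 0.00112).

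Usp4, a protease for TAK1, TRAF2, TRAF6 and the type I TGF-β receptor (chromosome 9, 108347853 to 108392545), had 131, 144, 138 and 139 aligned bases per Mb in HdR libraries, against 152, 154, 165 and 151 in WT libraries. No HdR library reached the WT range (log2 fold change -0.17 ± 0.04, SE, adjusted p = 0.00224). Usp2, known for cyclin D1 and clock proteins as well as NF-κB, was more variable, at 17.7, 15.3, 15.1 and 12.7 in HdR libraries, against 21.5, 18.6, 24.4 and 15.5 in WT libraries. The groups overlapped through WT 4, and its call (-0.37 ± 0.13, adjusted p = 0.0424) was lost without HdR 2 (0.0836), HdR 3 (0.0934), HdR 4 (0.103), WT 1 (0.103), WT 2 (0.0735) or WT 3 (0.0634). It was also lost when libraries were thinned to the smallest (0.0653), with no filter on low values (0.0655) and with upper-quartile scaling (0.0563). Thinning here and below is a random draw that was not repeated.

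The other 8 of this group did not pass the test. Usp7, whose product also acts on NF-κB at its target genes, had 183 ± 2.66 aligned bases per Mb in HdR and 178 ± 2.82 in WT libraries (SD, n = 4 each), and its 95% interval of -0.03 to 0.11 on the log2 scale lay within 1.2-fold. Usp25, a regulator of IL-17 signalling, had 100.3 ± 1.28 and 105 ± 2.61 in HdR and WT libraries, with no overlap but an adjusted p of 0.143. Usp10, which binds G3BP proteins and acts on p53 and NEMO, had 103 ± 2.83 and 96.8 ± 3.99 (adjusted p = 0.0872), and Usp15, a protease of TGF-β receptors and IκBα, 98.1 ± 2.97 and 92.1 ± 4.97 (adjusted p = 0.103). Leaving out WT 2 (0.0423 and 0.0196) or scaling by the upper quartile (0.0172 and 0.0221) made both calls of higher, as did library totals for Usp10 (0.0423) and the length correction for Usp15 (0.0292).

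Usp31, described as an inhibitor of NF-κB activation, had 48.5 ± 4.86 aligned bases per Mb in HdR and 43.5 ± 2.41 in WT libraries (adjusted p = 0.0763), and was called higher with upper-quartile scaling (0.0265), limma-voom (0.0455), thinning (0.0201), the length correction (0.0344) and without HdR 2 (0.00448), its lowest HdR library. Usp48, a protease of RelA, had 53.2 ± 2.78 and 49.9 ± 2.28 in HdR and WT libraries and was called higher with upper-quartile scaling (0.0462). Usp21, which acts on RIPK1 and histones, had 18.6 ± 1.22 and 18.1 ± 0.962. Usp11, which acts on IκBα, was close to the level threshold, at 1.37 ± 0.323 and 1.78 ± 0.484 (adjusted p = 0.215). Its interval, -0.53 to 0.08, held both no change and changes past 1.2-fold.

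The promoter windows of the 2 lower members with the smallest p that have one are shown because both genes were lower in all 4 HdR libraries. They are RefSeq sequences of build GRCm38.p6, 250 bases before to 50 after the start, on the strand of the gene: chr8:81014857-81015156 (minus strand) for Usp38 and chr2:30982029-30982328 (plus strand) for Usp20. Capitals mark GC boxes (GGGCGG or its complement CCGCCC) and CCAAT boxes (CCAAT or ATTGG). Usp38 holds 3 GC boxes, and Usp20 holds 2 GC boxes and 1 CCAAT box that starts 10 bases after the start site.
Usp38: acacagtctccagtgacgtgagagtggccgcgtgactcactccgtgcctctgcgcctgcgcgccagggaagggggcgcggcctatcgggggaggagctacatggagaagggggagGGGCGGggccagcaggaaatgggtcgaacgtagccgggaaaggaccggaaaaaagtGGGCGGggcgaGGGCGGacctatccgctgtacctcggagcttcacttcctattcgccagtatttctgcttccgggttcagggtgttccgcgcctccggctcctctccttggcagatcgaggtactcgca
Usp20: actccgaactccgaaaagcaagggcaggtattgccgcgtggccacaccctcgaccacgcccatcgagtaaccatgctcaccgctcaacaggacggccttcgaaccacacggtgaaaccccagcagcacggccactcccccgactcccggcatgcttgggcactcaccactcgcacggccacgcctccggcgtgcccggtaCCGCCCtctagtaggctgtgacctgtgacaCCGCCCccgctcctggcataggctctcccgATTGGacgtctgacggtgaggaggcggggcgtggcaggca

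Outside that group, 6 further members were lower. In the list for growth factor receptors and traffic 4 of 9 were lower (44.4%, against 23.6% of all genes; Usp4, Usp8, Usp20 and Usp32) and 0 higher, with 3 lower and 1 higher under upper-quartile scaling. In the list for histones 1 of 8 was lower and 1 higher (12.5% each), and in that for organelles 1 of 4 was lower (25%). Of 3 proteases that bind WDR48, 1 was higher (Usp1) and 1 lower (Usp12), or 33.3% each. Over all genes 21.4% were higher and 23.6% lower. Under upper-quartile scaling none of the last 3 lists had a lower call. Usp28, which binds 53BP1 and stabilises MYC, was at a low level, with 5.2, 3.76, 3.69 and 4.36 aligned bases per Mb in HdR libraries, against 6.21, 5.27, 5.77 and 6.6 in WT libraries. The gap between HdR 1 and WT 2 was narrow, and the call (log2 fold change -0.41 ± 0.11, SE, adjusted p = 0.00573) was lost when libraries were thinned to the smallest (0.051). Usp40 had 42, 40.2, 43 and 44.5 in HdR libraries, against 49.1, 50.4, 46.2 and 48.4 in WT libraries (-0.19 ± 0.049, adjusted p = 0.00454). Usp8, which deubiquitinates the EGF receptor and the endosomal sorting machinery, had 77.5, 78.1, 77.2 and 79.8 in HdR libraries, against 87.2, 90.1, 83.9 and 86.4 in WT libraries. Its genotypes were apart, with an HdR range of less than 3 aligned bases per Mb (-0.15 ± 0.039, adjusted p = 0.00492).

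Usp12, which is activated by WDR48 and WDR20, had 41.8, 38, 38.4 and 38.6 aligned bases per Mb in HdR libraries, against 42.6, 44, 44.7 and 43.9 in WT libraries. HdR 1 stood nearest to WT (log2 fold change -0.16 ± 0.049, SE, adjusted p = 0.0139), and the call was lost without HdR 4 and WT 4 together (0.0522), when thinned (0.0531) and with upper-quartile scaling (0.0544). Usp32, a membrane-bound protease of Rab7, had 40, 39.8, 39.4 and 37.4 in HdR libraries, against 45.6, 45.6, 42.7 and 41.4 in WT libraries, without overlap (-0.16 ± 0.051, adjusted p = 0.0175). Its call was lost without HdR 4 (0.0506), WT 1 (0.0641) or WT 2 (0.0513), when thinned (0.138) and with upper-quartile scaling (0.0596). Usp3, a histone deubiquitinase, had 39.6, 37.6, 39.1 and 39.6 in HdR libraries, against 41.9, 44.3, 42.2 and 43 in WT libraries (-0.13 ± 0.047, adjusted p = 0.0299). It lost the call without HdR 2 (0.0758), HdR 3 (0.0547), WT 2 (0.0806) or WT 4 (0.0559), when thinned (0.316) and with upper-quartile scaling (0.116) or library totals (0.0842). The call was also lost without HdR 4 and WT 4 together (0.0605).

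The 6 members that rose were Usp1, Usp5, Usp14, Usp37, Usp44 and Usp47. In the list for DNA repair, cell cycle and p53, 3 of 8 tested members were higher (37.5%, against 21.4% of all genes) and 1 (Usp28) lower (12.5%, against 23.6%), with a median log2 fold change of 0.11. Thinning to the smallest library gave 2 higher and 0 lower. Usp47, which acts on DNA polymerase β (chromosome 7, 112023504 to 112111661), had 190, 181, 205 and 189 aligned bases per Mb in HdR libraries, against 164, 161, 162 and 168 in WT libraries. The genotypes did not overlap (0.22 ± 0.039, SE, adjusted p = 0.000214). Usp1, the protease of FANCD2 and PCNA, had 72.2, 71.6, 80.9 and 78.3 in HdR libraries, against 68.9, 68.6, 63.7 and 68.3 in WT libraries (0.17 ± 0.048, adjusted p = 0.0102). HdR 1 and HdR 2 lay just above the WT range, and the call was lost without HdR 4 and WT 4 together (0.0518).

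Usp37, which stabilises cyclin A before S phase (chromosome 1, 74435511 to 74544284), had 22.3, 22.8, 24.4 and 21.1 aligned bases per Mb in HdR libraries, against 18.9, 19.2, 15.6 and 19.9 in WT libraries. The groups were apart, with WT 3 lowest (log2 fold change 0.29 ± 0.076, SE, adjusted p = 0.00491), and the call was lost when libraries were thinned to the smallest (0.0866). Usp44, a histone deubiquitinase of the spindle checkpoint, was at 5.17, 5.07, 4.21 and 5.47 in HdR libraries, against 3.16, 4.07, 4.33 and 3.77 in WT libraries. HdR 3 fell below WT 3, and the call (0.31 ± 0.11, adjusted p = 0.0292) was lost without HdR 1 (0.0691), HdR 2 (0.0581), HdR 4 (0.0764), WT 1 (0.11) or WT 4 (0.0524). It was also lost without HdR 4 and WT 4 together (0.115).

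The windows of the 2 higher members with the smallest p that have one, chr7:112023256-112023555 (plus strand) for Usp47 and chr1:74505772-74506071 (minus strand) for Usp37, are shown in the same way. The Usp37 window lies inside the gene span given above and not at the gene's outer end. Usp47 holds 1 GC box and Usp37 holds 3, and neither holds a CCAAT box.
Usp47: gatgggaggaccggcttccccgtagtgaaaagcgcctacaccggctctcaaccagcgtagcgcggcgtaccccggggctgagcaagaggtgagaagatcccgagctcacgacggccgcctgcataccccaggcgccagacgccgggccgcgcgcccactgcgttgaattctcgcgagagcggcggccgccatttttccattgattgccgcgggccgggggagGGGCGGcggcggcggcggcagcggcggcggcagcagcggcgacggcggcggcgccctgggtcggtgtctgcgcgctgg
Usp37: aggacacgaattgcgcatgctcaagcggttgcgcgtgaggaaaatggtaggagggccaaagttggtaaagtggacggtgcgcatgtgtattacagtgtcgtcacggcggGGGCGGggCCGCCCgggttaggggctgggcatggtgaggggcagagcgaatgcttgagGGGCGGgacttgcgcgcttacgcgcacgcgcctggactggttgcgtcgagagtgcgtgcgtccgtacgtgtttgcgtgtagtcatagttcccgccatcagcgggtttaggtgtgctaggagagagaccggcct

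In all, 33 of the 44 members had a window. A GC box was found in 25 of them (75.8%, against 35.7% of the 32851 windows in the table), in 9 of 10 lower members, 2 of 2 higher members and 14 of 21 members not called. The CCAAT box was found in 6 (18.2%, against 37.4%), and the E2F motif TTTNNCGC in 2 (6.06%, against 5.17%). The NF-κB consensus was in 1 (3.03%, against 8.46%) and the cyclic AMP response element TGACGTCA in 0 (0%, against 1.79%). Both strands were searched and motifs could overlap. The members with a window were not matched to the table for CpG content or gene type, and a match is a description of letters only.

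In the list for recycling of ubiquitin, of 3 genes, 2 were tested and 2 were higher (100%, against 21.4% of all genes). Thinning to the smallest library left 1 higher. The list was chosen with earlier results of these data known, and 2 genes are too few to show a trend for recycling. Usp14, which sits on the proteasome (chromosome 18, 9993066 to 10045119), had 126, 139, 131 and 136 aligned bases per Mb in HdR libraries, against 119, 118, 117 and 119 in WT libraries. All HdR libraries exceeded all WT libraries (log2 fold change 0.17 ± 0.038, SE, adjusted p = 0.00191). Its exons share 26% of their length with Thoc1 on the other strand, and strand use in the counting is not given in the sources used here. Thoc1 itself had 47.5 ± 2.72 and 45.7 ± 0.498 in HdR and WT libraries (SD, n = 4 each, adjusted p = 0.404). Usp5, which disassembles unanchored chains, had 135, 139, 138 and 133 in HdR libraries, against 121, 119, 133 and 127 in WT libraries. WT 3 reached into the HdR range (0.12 ± 0.041, adjusted p = 0.0203), and the call was lost without HdR 2 (0.0603), HdR 3 (0.0521), WT 1 (0.07) or WT 2 (0.0589), and when libraries were thinned to the smallest (0.148). Usp13 was listed at 0 in 7 of 8 libraries.

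**Figure D4:**
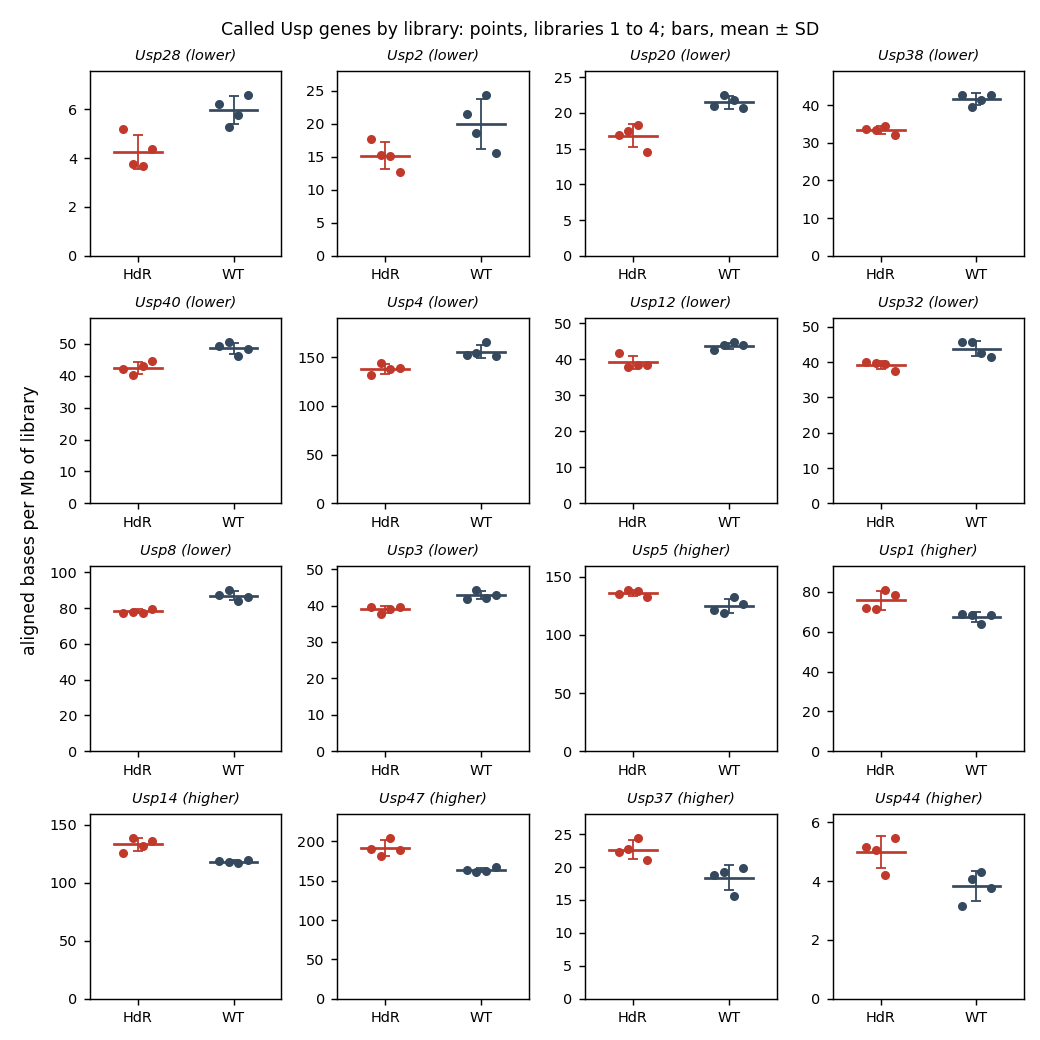
Aligned bases per Mb in each library for the 16 called Usp genes, ordered from the most negative to the most positive log2 fold change, with HdR left of WT, bars at the mean and whiskers of 1 SD (n = 4 each), and axes that start at 0. The points of the genotypes are apart in 13 genes and overlap in Usp2, Usp5 and Usp44, and the distance between the means is small beside the level. With upper-quartile scaling the Usp2, Usp3, Usp12 and Usp32 calls were lost.

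The remaining members gave no call in the main fit, though some were called under alternatives. The histone deubiquitinase Usp22, the catalytic subunit of the SAGA module, had 87 ± 3.42 aligned bases per Mb in HdR and 91.4 ± 7.83 in WT libraries, and its X-linked relative Usp27x 4.68 ± 0.755 and 4.87 ± 0.0888 (SD, n = 4 each). Usp16, which acts on histones in mitosis, had 62.5 ± 0.58 and 66.9 ± 3.23 (adjusted p = 0.0882), and without WT 4 it was called lower (0.0238). The ER-anchored Usp19 had 147 ± 2.44 and 149 ± 1.37, with an interval of -0.09 to 0.05, and the mitochondrial Usp30 21.8 ± 3.02 and 20.3 ± 0.404. Usp43 came closest to a call, at 6.42 ± 0.249 and 5.29 ± 0.681 without overlap (log2 fold change 0.24 ± 0.098, SE, adjusted p = 0.051), and was called higher under 9 alternatives, with adjusted p of 0.0218 (without WT 4) to 0.0489. Its exons share 12.8% of their length with 9130017K11Rik on the other strand, which has no values here. Without WT 3, Usp22 (0.0494), Usp33 (0.0414) and Usp36 (0.0056) were called lower, and without WT 4 Usp45 (0.0489) was called higher.

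None of the 4 members listed as inactive or as no protease was called, while 2 were called higher with upper-quartile scaling. Usp39 had 66 ± 3.7 aligned bases per Mb in HdR and 61.8 ± 0.661 in WT libraries (adjusted p = 0.11), and its adjusted p was 0.0289 under that scaling and 0.0441 with library totals. Usp53 had 22 ± 1.47 and 19.5 ± 1.68 (adjusted p = 0.0701), and was called higher without WT 4 (0.0197) or HdR 3 (0.0335), when thinned (0.0101), and with upper-quartile scaling (0.0312) or library totals (0.0446). Usp54 had 47.5 ± 1.22 and 50.2 ± 1.94, and Usp6nl 45.5 ± 1.34 and 46.9 ± 1.31. Usp49 shares 51.2% of its exonic length with Gm20517 on the same strand, so its 9.49 ± 1.39 and 9.86 ± 1.99 may hold reads of both.

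Close relatives were compared through the ratio of their levels in each library, for 13 pairs chosen after the values were seen. For Usp4 over Usp15 the ratio was 1.3, 1.5, 1.45 and 1.38 in HdR libraries, against 1.66, 1.55, 1.86 and 1.69 in WT libraries. Usp12 over Usp46, a pair that shares the activator WDR48, was 0.984, 0.82, 0.924 and 0.924 in HdR libraries, against 0.996, 1.03, 1.04 and 1.04 in WT libraries. For Usp20 over Usp33 it was 0.404, 0.429, 0.414 and 0.336 in HdR libraries, against 0.46, 0.45, 0.515 and 0.452 in WT libraries. These 3 pairs were the ones whose ratios did not overlap between genotypes, with HdR lower in each. Their exact permutation p was 0.0286 (two-sided), the smallest that 70 regroupings allow, and 0.124 after adjustment over the 13 pairs. No pair passed. With only 3 pairs at that smallest p the adjusted p could not be lower, however far apart the ratios, so the test cannot decide whether they differ. Per kb, Usp4 was 2.97 times Usp15 and 51.1 times Usp11 over all libraries.

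Among the 10 longest members, HdR 2 was the lowest HdR library in 7 and WT 3 the lowest WT library in 8. Usp34, Usp9x and Usp24, chosen after their values were seen, had a wide spread among libraries of 1 genotype. Usp34, the longest at 18.5 kb of exons, had 191, 172, 195 and 181 aligned bases per Mb in HdR libraries, against 172, 196, 154 and 186 in WT libraries. Its exons share 11.6% of their length with Ahsa2 on the other strand, so reads of both may be included. Ahsa2 was called higher in HdR (limma adjusted p = 0.039). Usp9x, which acts on MCL1 and SMAD4, had 138, 126, 142 and 137 in HdR libraries, against 135, 149, 115 and 138 in WT libraries. Usp24 had 196, 184, 210 and 206 in HdR libraries, against 185, 201, 168 and 196 in WT libraries. In Usp34, Usp9x and Usp24, HdR 2 and WT 3 were the lowest libraries of their genotype. None of these members passed the test (adjusted p 0.488, 0.851 and 0.225), though Usp24 was called higher after the correction for exonic length (0.0439). Others of the 10 differed: Usp15 and Usp53 were lowest in HdR 3, and Usp47, Usp40 and Usp37 were called.

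Over the 10 longest members the median log2 deviation from the group mean was -0.076 in HdR 2 and -0.1 in WT 3, and 0.073 in HdR 3, 0.06 in WT 2 and 0.068 in WT 4. Across all 11775 tested genes with a length, the Spearman correlation of deviation with length was -0.22 in HdR 2, -0.38 in WT 3, 0.21 in HdR 3, 0.29 in WT 2 and 0.16 in WT 4. Each is a description within 1 library, whose genes share its depth and RNA. The change between genotypes had almost no relation to length (Spearman 0.02 over all genes and 0.11 over the 44 members). USP genes are long, with a median of 7.68 kb of exons against 4.43 kb for genes tested.

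**Figure D5:**
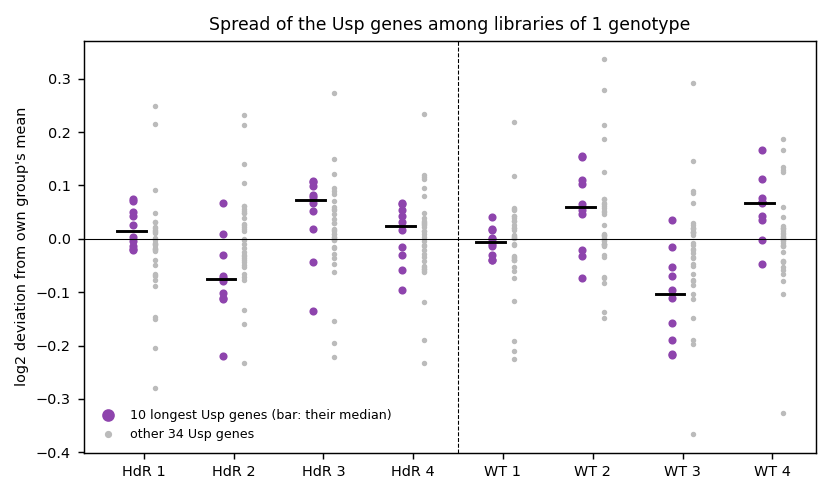
Log2 deviation of each Usp gene from the mean of its own genotype in each library, with the 10 longest genes as purple points, their median as a black bar and the other 34 genes in grey. The bars lie lowest in WT 3 (-0.1) and HdR 2 (-0.076) and highest in HdR 3 (0.073) and WT 4 (0.068).

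Deubiquitinases of other folds included genes with larger changes than any of the 44 members. Of 34 tested from the OTU, UCH, Josephin, MINDY, ZUP and JAMM classes, 8 were higher, 6 lower and 20 not called (median log2 fold change -0.025). That is 23.5% higher and 17.6% lower, against 21.4% and 23.6% of all genes. Scaling by the upper quartile or by library totals gave 11 higher and 5 lower. Tnfaip3, which encodes the OTU protease and NF-κB inhibitor A20, had 105 ± 8.07 aligned bases per Mb in HdR and 30 ± 3.87 in WT libraries (SD, n = 4 each, 1.77 ± 0.082, SE, adjusted p = 1.55e-08). Otub2, which encodes an OTU protease, had 11.8 ± 1.53 and 23.8 ± 2.19 (-0.96 ± 0.088, adjusted p = 2.26e-07), and the JAMM gene Mpnd 28.3 ± 2.33 and 40.2 ± 1.33 (-0.49 ± 0.061). The proteasome-bound deubiquitinases beside Usp14 were higher as well: Psmd14 had 132 ± 3.07 and 121 ± 5.89 (0.13 ± 0.041, adjusted p = 0.0185) and Uchl5 68.1 ± 2 and 59.2 ± 3.36 (0.20 ± 0.048, adjusted p = 0.00253). The Psmd14 call was lost without HdR 2 (0.056), HdR 4 (0.051) or WT 2 (0.059), and when thinned (0.0718).

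Of 3 genes with the USP fold under another symbol, 2 were lower (66.7%, against 23.6% of all genes). Cyld, whose product cleaves linear chains, had 33.8 ± 3.14 aligned bases per Mb in HdR and 38.8 ± 1.75 in WT libraries, with overlap (log2 fold change -0.20 ± 0.063, SE, adjusted p = 0.0174), and lost the call with upper-quartile scaling (0.0514) and without HdR 1 (0.0554) or HdR 3 (0.0685). Pan2, a subunit of a deadenylase, had 27.6 ± 2.17 and 33.3 ± 1.39 without overlap (-0.26 ± 0.061, adjusted p = 0.0021). Otulin, the linear-chain protease of the OTU class, had 38.8 ± 2.9 and 35.4 ± 1.72 and was not called (adjusted p = 0.0938), but was called higher with upper-quartile scaling (0.0329) or library totals (0.0459).

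Of 15 tested cofactors of USPs, 5 were higher (33.3%, against 21.4% of all genes) and 2 lower (13.3%, against 23.6%). Their median log2 fold change was 0.0054. G3bp2 (0.30 ± 0.042, SE) and G3bp1 (0.17 ± 0.032), whose products bind USP10, and Gmps (0.26 ± 0.05), which encodes a partner of USP7, were higher, while Atxn7l3 (-0.25 ± 0.04), a subunit of the USP22 module, was lower. Wdr48, the shared activator of Usp1, Usp12 and Usp46, had 48.8 ± 2.69 aligned bases per Mb in HdR and 48.6 ± 1.2 in WT libraries (SD, n = 4 each). Of 24 genes whose proteins are known USP substrates or targets, 8 were higher (33.3%, against 21.4%) and 6 lower (25%, against 23.6%), with a median of 0.0020. Among them Nfkbia (0.49 ± 0.041), Trp53 (0.31 ± 0.038) and Traf3 (0.36 ± 0.053) were higher and Mcl1 (-0.30 ± 0.037) lower. These are transcript levels and do not measure the stability of the proteins.

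Of the 6 ubiquitin and E1 genes, 2 were higher (33.3%, against 21.4% of all genes) and 3 lower (50%, against 23.6%). Upper-quartile scaling left 2 higher and 0 lower. Uba1, which encodes the main ubiquitin-activating enzyme, had 583 ± 7.98 aligned bases per Mb in HdR and 497 ± 16.5 in WT libraries (log2 fold change 0.23 ± 0.033, SE, adjusted p = 2.97e-05). The ubiquitin gene Ubb had 667 ± 24.8 and 726 ± 19.8 (-0.12 ± 0.035, adjusted p = 0.0093), a call lost with upper-quartile scaling (0.069) and when thinned (0.0621). The LUBAC subunit genes Rnf31 (16.8 ± 1.63 and 18.3 ± 0.945) and Sharpin (25.6 ± 1.71 and 27.6 ± 1.03) were not called (adjusted p 0.186 and 0.163).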

How the data were processed

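RNA was sequenced from primary keratinocytes of 4 HdR and 4 WT samples. Per the labels' protocols, total RNA was prepared with a column kit and sequenced as Illumina libraries, and the submitters' processing notes name GRCm38 as the build. The aligner, counting tool and strand setting are not given in the sources used here. The authors deposited 1 table of signal, read from its values as summed coverage: whole numbers of aligned bases per gene, often in steps of 302, unscaled for depth or length. Coverage is not a count of molecules, so no counting interval or floor is given.

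Libraries were scaled by trimmed-mean factors (trim 30% of log ratios, 5% of mean levels) to aligned bases per Mb. Genes with a mean of at least 1 were tested on log2(value + 1) with limma 3.58.1 (R 4.3.3, statmod 1.5.0; mean trend, robust), HdR minus WT, two-sided, Benjamini-Hochberg over 11870 genes. Fold changes are on that scale, which understates low genes. Positions and lengths come from GENCODE on GRCm38, where all 44 members matched, and promoters from RefSeq. Named were members of the NF-κB and recycling lists, called members with the largest changes, those at the level threshold and, per other list, up to 4 genes by p, and others only after their values were seen. Members and lists were chosen with earlier results of these data known. The calculation was tested on simulated data, and 21 alternatives were run. Thinning was a random draw that was not repeated, so how far its calls vary between draws was not tested. Figures used matplotlib 3.10.9.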

Additional observations from a re-analysis of the deposited data

Results flagged for a closer look

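In 94 groups of 4 libraries (44 members, Rbck1, Rnf31 and Sharpin, each genotype), 3 single libraries stood far from the other 3 of their genotype; chance gives about 1 in 20 groups. Usp12 in HdR 1 was at 41.8 aligned bases per Mb, with the other HdR libraries at 38 to 38.6. Usp16 in WT 4 was at 62.1, with the other WT libraries at 68.1 to 69.3. Usp1 in WT 3 was at 63.7, with the other WT libraries at 68.3 to 68.9.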

How the results depend on the processing

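Of the 16 called members, 7 (Usp14 and Usp47 higher; Usp4, Usp8, Usp20, Usp38 and Usp40 lower) kept call and direction under 20 of 21 alternatives, the exception being the test against a fold of 1.2, and 9 lost the call under at least 1 other. Upper-quartile scaling gave 13 members higher and 6 lower, library totals 10 higher, length correction 10 higher, thinning 5 lower, and the test against a fold of 1.2 gave 0 and 0. That test also gave 347 genes higher and 540 lower over the table, and 2 and 2 in the cofactor, substrate, other deubiquitinase and ubiquitin lists together. When each library was left out, members called higher numbered 4 to 8 and members called lower 7 to 12. With the replicate block 5 members were higher and 9 lower, and 2256 and 2502 genes over the table. Usp3 (0.0711) and Usp44 (0.0527) lost their call under it. Among the 16 called members only Usp2 had a smaller adjusted p with the block (0.00393, against 0.0424 in the main fit). The labels do not say whether same-numbered libraries belong together. Their deviation correlations were -0.22 to 0.028, and not every library correlated best with its own number. Such correlations cannot decide whether preparation or animals were shared. No called gene named here changed sign. Signs turned for 9 uncalled members and 3 other uncalled genes, all with small differences: Usp21 (-0.0055 thinned; -0.0023 to 0.072 when each library was left out) and Usp35 (0.017 with upper-quartile scaling, 0.0073 with library totals, 0.032 with limma-voom; -0.086 to 0.085 when each was left out). Usp19 became 0.017 with upper-quartile scaling and 0.0035 with library totals, Krt14 0.0050 with upper-quartile scaling, and Usp27x, Usp6nl and Thoc1 0.0031, 0.0039 and -0.0026 when thinned. When each library was left out, the log2 fold change ran from -0.11 to 0.038 for Usp27x, -0.00071 to 0.12 for Usp34, -0.028 to 0.024 for Usp46, -0.16 to 0.032 for Usp49, -0.054 to 0.071 for Usp9x, -0.024 to 0.030 for Wdr48 (-0.013 without HdR 4 and WT 4 together) and -0.080 to 0.0084 for Krt14. Apart from construction (fewer reads, a stricter null), the cause was not tested. Whether depth limits Usp11 and Usp35, the members near 1 aligned base per Mb, was not tested.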
